A study of Mus musculus with 34 samples.

Results

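Versions of the glucocorticoid receptor (GR) altered at the same tryptophan, W718E and W718S/Y722S, were compared in C127 mouse cells for how strongly each gene answered to hormone. The members were the 16 libraries of the W718E and W718S/Y722S lines, out of 34 libraries in 10 groups. For each gene the change with dexamethasone (Dex, a synthetic glucocorticoid) in W718S/Y722S was set against its change in W718E. Of 25124 genes in the deposited tables, 12932 had at least 10 normalised reads in at least 3 of the 16 libraries and were tested.

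The groups were W718E with vehicle (n = 3), W718E with Dex (n = 3), W718S/Y722S with vehicle (n = 5) and W718S/Y722S with Dex (n = 5). All 16 libraries came from C127 cells, labelled C127l and described as adenocarcinoma cells, whose endogenous receptor had been knocked out (GRKO in the labels) and which carried GFP-mGR, a GFP-tagged mouse GR. W718E replaces a tryptophan with glutamate. W718S/Y722S replaces the same tryptophan with serine and also a nearby tyrosine with serine, so the lines differ at both residues. Cells were kept for 24 h in 10% charcoal-stripped serum, which lacks most steroids, and were then given 100 nM Dex for 2 h or vehicle. The labels name neither clones nor separate cultures. A receptor and the line that carries it therefore cannot be told apart, and p-values measure the spread between these libraries, which may be technical. No library with unaltered receptor was used here.

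GR is a transcription factor that waits in the cytoplasm bound to chaperones, binds hormone through its ligand-binding domain, and moves to the nucleus. There it raises many genes from DNA elements made of short inverted repeats, and it lowers others, in part by interfering with factors such as AP-1. The series concerns how receptor molecules assemble into multimers, and both substitutions lie in the ligand-binding domain.

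Libraries had 16472097 to 30050087 reads counted in exons. The authors normalised and shrank the 2 tables separately, so read counts were recovered from the deposited log2 values first, and levels below are normalised read counts put on 1 scale for all 16 libraries. Levels of mesenchymal markers varied widely, with Vim at 52334 to 72831 (lowest and highest library) and Acta2 at 4.92 to 33.1. Col1a1 was at 81.3 to 204 and Col3a1 at 79.2 to 279. The other mesenchymal markers were Fn1 at 23836 to 70071, Col1a2 at 35144 to 66418 and Pdgfrb at 2463 to 5663. Cdh2 was at 2946 to 3477, Zeb1 at 1386 to 1909 and Twist1 at 409 to 558. Of 10 mesenchymal markers 0 were under 10 in every library. Their summed level was 195901 to 201708 over the W718E libraries and 141465 to 152598 over the W718S/Y722S libraries. Epithelial markers other than Krt14 were low, with Epcam under 1 in every library and Krt8 at 12.6 to 40.5. Krt14 was at 86.2 to 1581. Of 10 epithelial markers 4 were under 10 in every library, and of 15 markers of other cell types 10 were. The summed epithelial level was 160 to 255 over the W718E libraries and 636 to 1663 over the W718S/Y722S libraries, and Krt14 made up most of the latter.

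The W718S/Y722S Dex library labelled replicate 1 stood apart. Its chi-square per gene against the other 4 Dex libraries of its group was 10.0 to 12.9, against 1.30 to 3.38 among those 4. Its Krt14 level was 580, and the others of its group had 1361 to 1521. It also had the weakest response of its group over the P643A genes described further on. This did not hold for every gene. Its change was the largest of the group for Ccn2, Hmga2 and Glul and the smallest for Ampd3, Wee1 and Cblb. Counts are therefore given with and without this library. Some libraries of W718S/Y722S were nearly identical, namely vehicle replicates 2 and 3 (chi-square per gene 1.33), Dex replicates 2 and 3 (1.30) and Dex replicates 4 and 5 (1.53). They differed by more than sampling noise, which does not show that they are separate samples. The labels do not say whether they are repeat libraries of 1 RNA. They were counted as separate libraries, so n = 5 may overstate the number of independent samples. With each such pair summed to 1 library, fewer genes were called, as given with the counts.

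Nr3c1, which encodes GR (chromosome 18, 39410545 to 39489776 in mm10), was checked first. Its level was 4750, 4640 and 4605 with vehicle and 4722, 4759 and 4547 with Dex in the 3 W718E libraries of each group. The W718S/Y722S libraries had 5750, 5794, 5776, 5729 and 5779 with vehicle and 5320, 5556, 5432, 5304 and 5497 with Dex. Every W718S/Y722S library lay above every W718E library. Nr3c1 reads can come from the tagged receptor or from the knocked-out locus, and the level does not measure receptor protein. Levels were not tested between lines. The log2 change with Dex was -0.09 ± 0.02 (± SE) in W718S/Y722S (adjusted p = 0.0258 in limma with Benjamini-Hochberg adjustment) and 0.00 ± 0.03 in W718E. The difference of these changes did not pass (adjusted p = 0.436).

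With Dex, 72 genes changed in W718E, 68 upward and 4 downward, at an adjusted p under 0.05 in limma. This was 0.557% of the genes tested, with 0.526% upward and 0.0309% downward. In W718S/Y722S 650 genes changed, 339 upward and 311 downward, or 5.03% (2.62% and 2.4%). In bulk RNA, fewer cells of a type and less RNA per cell cannot be told apart. These counts rest on unequal numbers of libraries: with replicates 1 to 3 of each group alone, W718E had 61 calls and W718S/Y722S had 324. With the near-identical libraries summed they were 67 and 308, and without W718S/Y722S Dex replicate 1 they were 111 (0.858%) and 855 (6.61%, with 3.21% upward and 3.4% downward). The lines shared 68 called genes, all changed in the same direction. They were 94.4% of the W718E calls and 10.5% of the W718S/Y722S calls. The authors' deposited tables gave 77 genes an adjusted p under 0.05 in W718E and 608 in W718S/Y722S, and 65 genes were in both lists.

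The difference of the changes was tested itself, as the contrast over the 4 group means. It passed for 35 genes, or 0.271% of those tested, of which 22 had a higher change in W718S/Y722S (0.17%) and 13 a lower one (0.101%). Without W718S/Y722S Dex replicate 1 it passed for 146 genes (1.13%), 66 higher and 80 lower, and all 35 were among them. The number also moved by more than 1.5 times without W718E Dex replicate 1 (17 genes), W718E Dex replicate 3 (22), W718S/Y722S vehicle replicate 5 (20), W718S/Y722S Dex replicate 2 (22) or W718S/Y722S Dex replicate 3 (21). With the near-identical libraries summed it was 14, of which 13 were among the 35. With 3 libraries per group it was 5, namely Ccn2, Glul, Cdr2, Pkp1 and Bbc3. For all 35 genes the changes of the 5 W718S/Y722S Dex libraries lay wholly above or wholly below those of the 3 W718E Dex libraries, which held for 14.8% of all genes tested. At an unadjusted p under 0.05 the difference passed for 1228 genes.

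**Figure D1:**
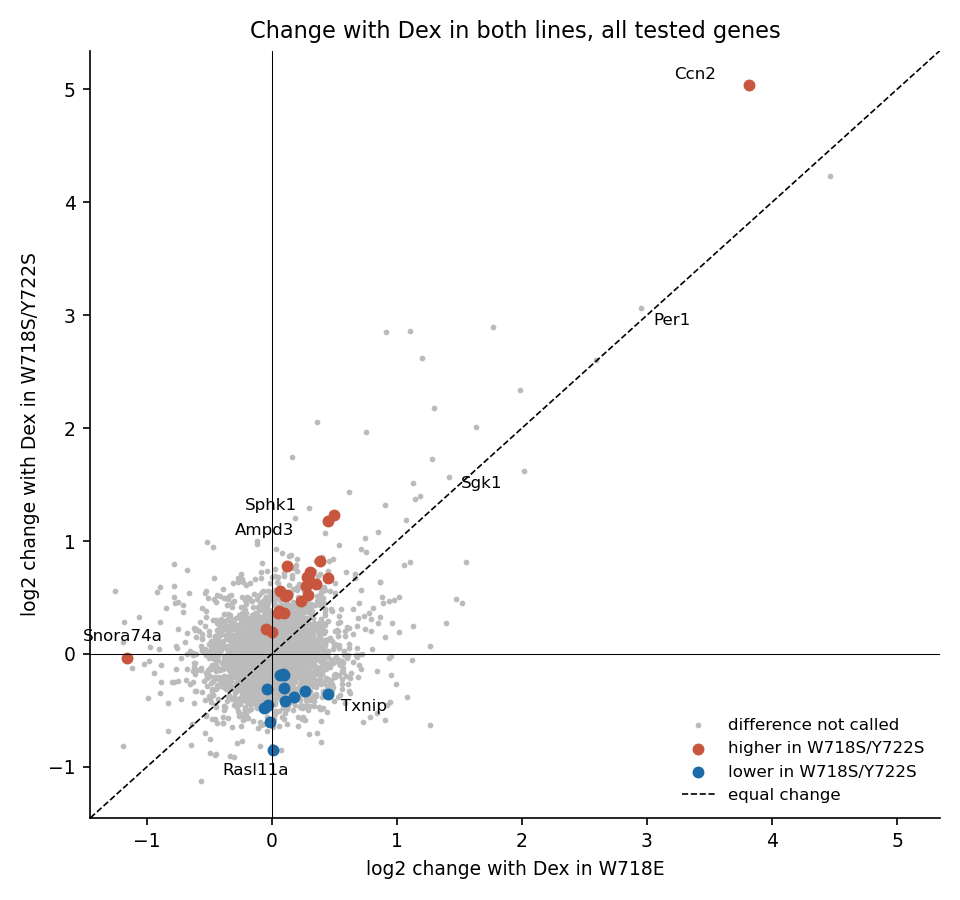
Log2 change with Dex in W718E (horizontal axis) against that in W718S/Y722S (vertical axis), 1 point per tested gene, with the 22 genes of higher change in W718S/Y722S in red, the 13 of lower change in blue and equal change as a dashed line. Ccn2 lies farthest out among the red points, at 3.82 and 5.04, while Per1 lies near the line at 2.95 and 3.07.

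Of the 35 genes, 34 changed in W718S/Y722S by the test in that line, 21 upward and 13 downward, and 13 changed in W718E. All 13 genes of the lower set fell in W718S/Y722S and none passed in W718E. In the higher set 21 of 22 rose in W718S/Y722S and 12 of these also rose in W718E, to a lesser extent. The remaining member, Snora74a, fell in W718E.

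Ccn2 (also called CTGF), a secreted matricellular protein and a classical target of the Hippo pathway effectors YAP and TEAD, had the largest difference. It lies on chromosome 10, 24595442 to 24598682. Its level was 87.7, 68.8 and 75.5 with vehicle and 1059, 1269 and 976 with Dex in W718E. In the other line it was 41.0, 31.9, 32.5, 33.9 and 27.6 with vehicle and 1588, 1070, 1108, 980 and 978 with Dex. The value of 1588 is that of Dex replicate 1, the library that stood apart, and it raises the W718S/Y722S Dex mean used below. Its log2 change was 5.54, against 4.84 to 5.02 in the other Dex libraries of the line. The vehicle levels of the lines did not overlap and the Dex levels did. Means of the groups gave a 14.2-fold rise in W718E and a 34.3-fold rise in W718S/Y722S, and the log2 difference of the changes was 1.23, with a 95% interval of 0.83 to 1.62 (adjusted p = 0.00397). The level ratio between the lines (W718S/Y722S over W718E) was 0.431 with vehicle and 1.04 with Dex, so the difference sat in the vehicle level. With the observation weights of limma's voom in place of equal weights, the difference did not pass (adjusted p = 0.260).

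Ampd3, an AMP deaminase of purine metabolism, showed another pattern. It stood at 1033, 957 and 1382 with vehicle and 1503, 1491 and 1562 with Dex in W718E, and at 1041, 1253, 1166, 1182 and 1168 with vehicle and 2189, 2786, 2740, 2657 and 2789 with Dex in W718S/Y722S. The vehicle levels overlapped and the Dex levels did not. Its log2 change was 0.45 ± 0.10 in W718E and 1.18 ± 0.08 in W718S/Y722S, a difference of 0.72 ± 0.12 (adjusted p = 0.00935). Tead4, a DNA-binding partner of YAP, had the same pattern of levels. It went from 878, 854 and 939 to 1185, 1143 and 1155 in W718E and from 833, 909, 865, 857 and 817 to 1429, 1495, 1532, 1631 and 1485 in W718S/Y722S. Its changes were 0.38 ± 0.05 and 0.82 ± 0.04, and their difference of 0.44 ± 0.06 passed (adjusted p = 0.00309). Cdr2, an antigen of paraneoplastic cerebellar degeneration, rose from 891, 879 and 884 to 1109, 1065 and 1113 in W718E. The rise in W718S/Y722S was from 872, 870, 870, 919 and 904 to 1340, 1560, 1543, 1468 and 1445, and the difference was 0.42 (adjusted p = 0.00309). Wee1, a kinase that restrains entry into mitosis, and Cblb, a ubiquitin ligase of receptor signalling, also had vehicle level ratios near 1, at 0.966 and 1.01. Their differences were 0.38 and 0.32. These 2 calls were fragile and ended in 7 and 14 of the 16 fits that each left out 1 library.

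Sphk1, the kinase that makes sphingosine 1-phosphate, rose from 228, 247 and 296 to 386, 345 and 355 in W718E. Its rise in W718S/Y722S was from 130, 114, 139, 149 and 152 to 288, 347, 339, 324 and 307. As with Ccn2, the vehicle levels were apart and the Dex levels overlapped. The difference was 0.73 ± 0.13 (adjusted p = 0.0137), and it did not pass in 2 of the 16 fits that left out a library. Hmga2, a chromatin architectural protein, was at 2703, 2672 and 3412 with vehicle and 3157, 3046 and 3316 with Dex in W718E, and these overlapped. It rose from 2116 ± 156 (SD) to 3641 ± 299.6 in W718S/Y722S (n = 5), with a difference of 0.66 ± 0.10 (adjusted p = 0.00397). Glul, the glutamine synthetase and a known glucocorticoid target, rose 1.21-fold in W718E and 1.61-fold in W718S/Y722S (difference 0.41, adjusted p = 0.00328). Pkp1, a desmosomal plakophilin, rose in W718S/Y722S by 0.51 ± 0.03, while its change of 0.11 ± 0.04 in W718E did not pass (difference 0.40, adjusted p = 0.00309). The other named genes of higher change were Zfp697 (0.50), Nfatc1 (0.40), which encodes a calcineurin-regulated transcription factor, Fmnl2 (0.32), a formin that elongates actin filaments, and Colec12 (0.31), a scavenger receptor.

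Snora74a, a small nucleolar RNA on chromosome 18, was the gene of the 35 that changed in W718E and did not pass in W718S/Y722S. It lies inside Snhg4, a noncoding gene on the same strand, so reads of the pair are not fully separable. Its level there was 294, 195 and 267 with vehicle and 156, 93.9 and 92.7 with Dex, and the log2 change was -1.16 ± 0.19 (adjusted p = 0.00130). In W718S/Y722S it was 89.1 ± 18.6 with vehicle and 85.6 ± 6.27 with Dex (n = 5 each), so those libraries were all below the W718E vehicle libraries. The difference of 1.12 ended in 12 of the 16 fits that left out a library. Other short noncoding RNAs had changes of the same sign in W718E that did not pass, -0.46 for Rmrp, -0.31 for Rprl3 and -0.18 for Rpph1, against 0.15, 0.16 and 0.16 in W718S/Y722S. Whether recovery of short RNAs differed between libraries was not tested.

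**Figure D2:**
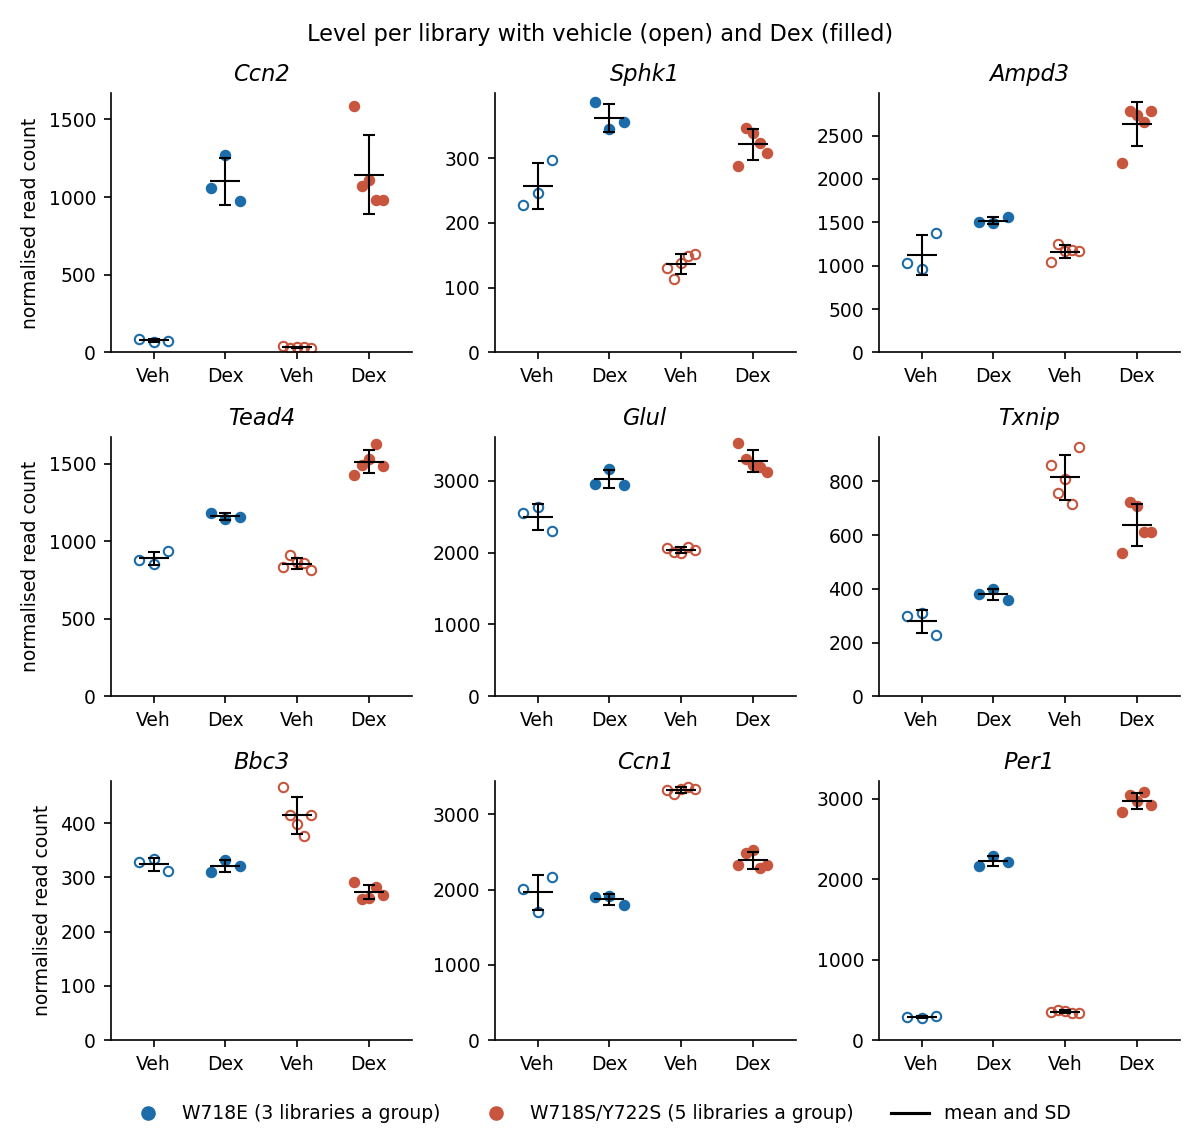
Normalised read count per library for 9 genes, with vehicle (open points) and Dex (filled points) in W718E (blue, 3 libraries a group) and W718S/Y722S (red, 5 libraries a group); black bars are the mean and SD. Ccn2 and Sphk1 differ between the lines with vehicle, Ampd3 and Tead4 with Dex, and Bbc3 and Ccn1 fall with Dex in W718S/Y722S, where W718E libraries overlap. Levels of Txnip, counted on different transcripts, are comparable within a line and not between the lines.

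In the set of lower change, Bbc3 encodes PUMA, a BH3 protein that promotes apoptosis. It was at 327, 334 and 311 with vehicle and 309, 333 and 321 with Dex in W718E. It fell in W718S/Y722S from 467, 415, 397, 375 and 415 to 291, 261, 261, 281 and 268. The W718E groups overlapped and the W718S/Y722S groups did not. The log2 change was -0.60 ± 0.06 in W718S/Y722S and -0.01 ± 0.07 in W718E, a difference of -0.58 with a 95% interval of -0.78 to -0.39 (adjusted p = 0.00397). The difference passed in every fit that left out a library.

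Ccn1 (also called CYR61), the matricellular relative of Ccn2 and likewise a YAP and TEAD target, moved the other way. It was at 2010, 1709 and 2170 with vehicle and 1897, 1921 and 1792 with Dex in W718E. The W718S/Y722S level fell from 3325, 3265, 3336, 3360 and 3335 to 2325, 2493, 2524, 2281 and 2326. The W718S/Y722S libraries with Dex remained above every W718E library. The difference was -0.41 ± 0.07 (adjusted p = 0.0119), with an adjusted p of 0.0537 in the 1 fit that lost it.

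Txnip, a thioredoxin-binding arrestin that limits glucose uptake, had opposite signs in the lines. Its level was 300, 308 and 230 with vehicle and 379, 398 and 360 with Dex in W718E, a log2 change of 0.45 ± 0.11 that did not pass (adjusted p = 0.0787). The level fell in W718S/Y722S from 860, 756, 810, 717 and 929 to 532, 722.1, 709, 611 and 612, by -0.36 ± 0.09 (adjusted p = 0.0138), with 1 Dex library above the lowest vehicle library. The difference of -0.81 passed (adjusted p = 0.00980). Its counts come from different RefSeq transcripts in the 2 tables, so its levels cannot be set against each other. Rasl11a, a Ras-like GTPase, was at 62.5 ± 1.84 and 63.0 ± 6.82 in W718E (n = 3 each) and fell from 166 ± 12.5 to 92.1 ± 11.4 in W718S/Y722S (n = 5 each). Its difference of -0.86 ± 0.16 passed (adjusted p = 0.0137). Prelp, a leucine-rich matrix proteoglycan, had the values 931 ± 104 and 1117 ± 29.5 in W718E and fell from 497 ± 29.7 to 397 ± 33.3 in W718S/Y722S (difference -0.59, adjusted p = 0.00831).

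The remaining genes of lower change had smaller differences. They were Slc25a42 (-0.55), a mitochondrial carrier of coenzyme A, Dagla (-0.52), which makes an endocannabinoid, Dipk2a (-0.42), Gpat3 (-0.40), a glycerolipid acyltransferase, Tgfb3 (-0.28), a TGF-beta ligand, Irf2bpl (-0.27), Zcchc24 (-0.26) and Emilin1 (-0.25), an elastin-associated glycoprotein. Calls for Tgfb3, Irf2bpl, Zcchc24, Emilin1, Slc25a42 and Dagla each ended in 8 to 13 of the 16 fits that left out 1 library. Over the 35 genes, 13 calls held in every such fit, 10 of the higher and 3 of the lower set.

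**Figure D3:**
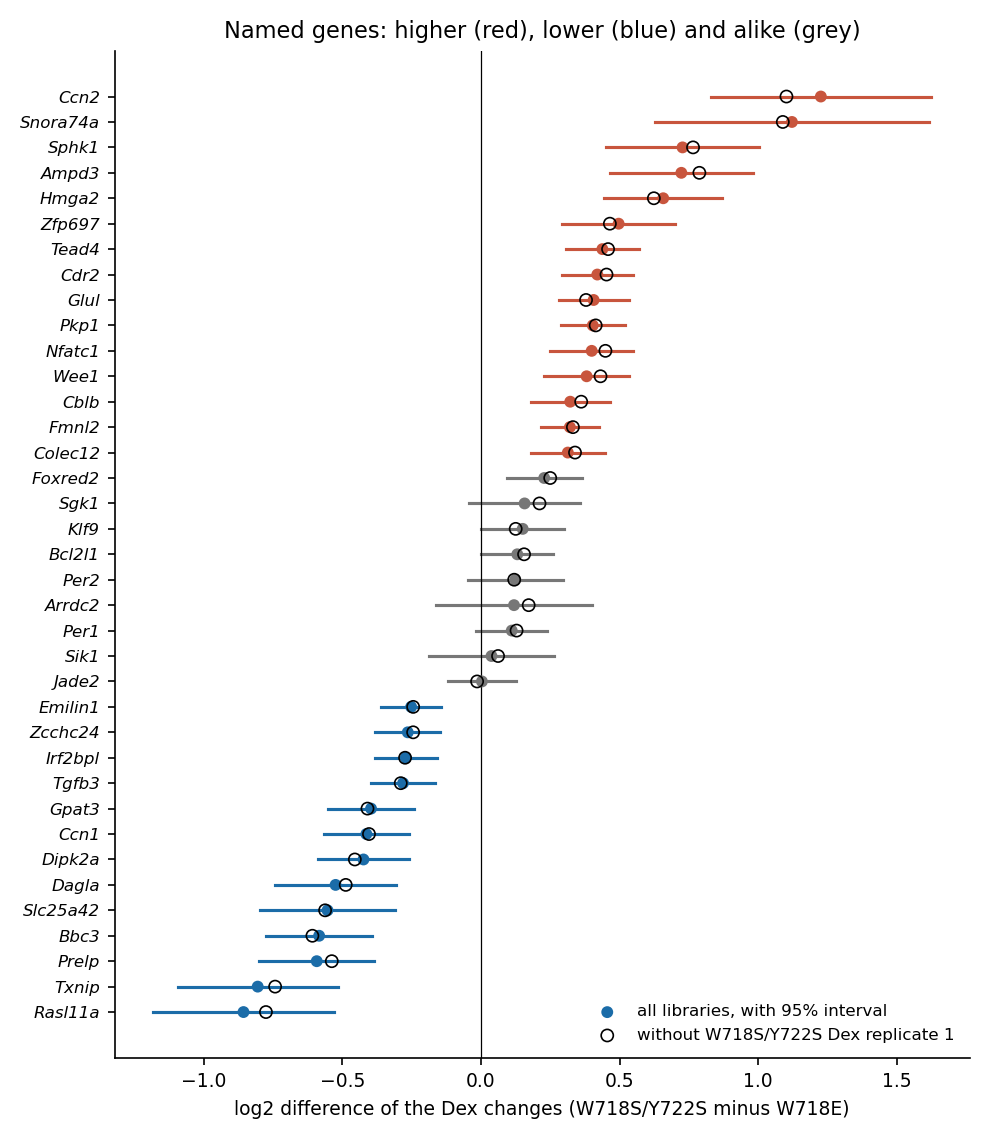
Log2 difference of the Dex changes (W718S/Y722S minus W718E) for the named genes, with the 95% interval from limma as a bar and the value without W718S/Y722S Dex replicate 1 as an open circle. Differences run from -0.86 for Rasl11a to 1.23 for Ccn2, and each open circle lies inside the interval of its gene.

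Since the vehicle libraries enter each change, levels were also set side by side with and without hormone for the 34 genes counted on the same transcript in both tables, all of the 35 except Txnip. Vehicle levels of the lines were within 1.5-fold of each other for 24 of the 34 genes, compared with 94.7% of the 10809 tested genes with the same transcript in both tables and a level of at least 50 in some group. The vehicle level was over 1.5-fold higher in W718E for 5 of the 22 genes of higher change and over 1.5-fold higher in W718S/Y722S for none of them. In the 12 genes of lower change these numbers were 1 and 4. With Dex, the levels of the lines were nearer each other than with vehicle in 20 genes and further apart in 14. The same vehicle libraries stand on both sides of this comparison, and whether the vehicle level plays a part in the response was not tested.

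**Figure D4:**
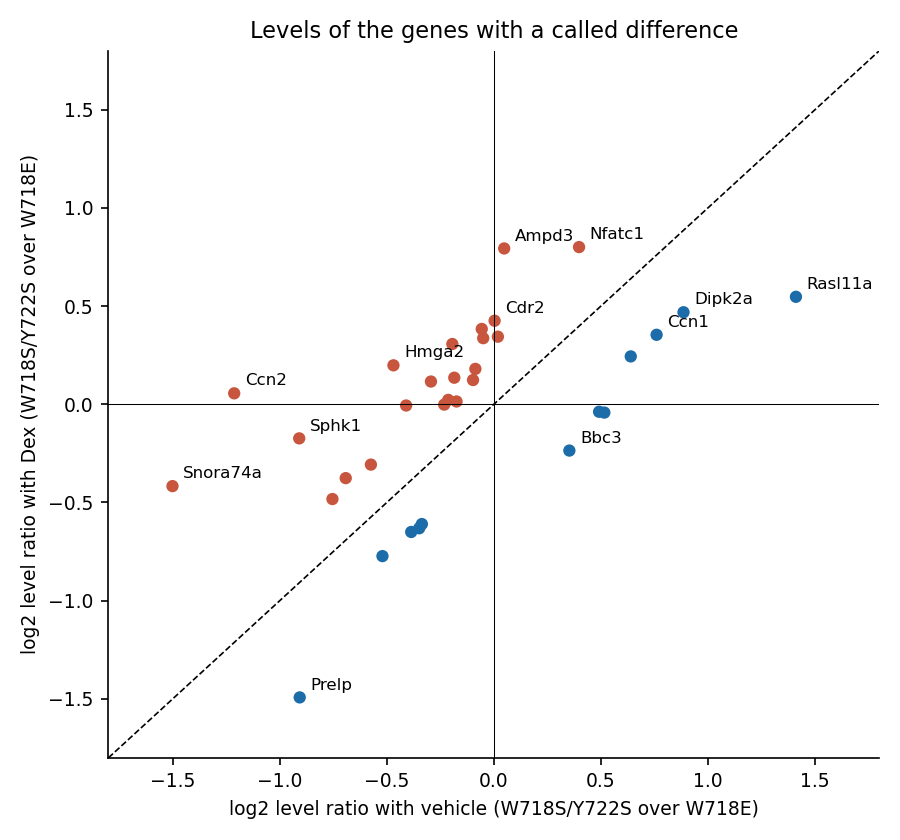
Log2 ratio of the mean level in W718S/Y722S over that in W718E with vehicle (horizontal axis) and with Dex (vertical axis) for the 34 genes with a called difference and the same transcript in both tables, red for higher and blue for lower change in W718S/Y722S. The height above or below the dashed line of equal ratios is close to the difference of the changes; Ccn2 lies left of 0 near the horizontal line, with level ratios of 0.431 and 1.04, and Ampd3 lies above 0 near the vertical line, with ratios of 1.03 and 1.73.

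Several strong glucocorticoid responses were alike in both lines. A gene was called alike when it changed in both lines in the same direction and the 95% interval of the difference lay within 0.5 of 0 on the log2 scale. This held for 48 genes, 45 that rose and 3 that fell, although 5 of them had a small difference that itself passed the test. Only 9 of the 48 changed by at least 0.5 in both lines. For the rest the limit exceeds the change in at least 1 line, so the rule says little about how similar those responses were. Per1, a repressor of the circadian clock, rose from 285, 275 and 299 to 2168, 2294 and 2214 in W718E. The rise in W718S/Y722S was from 352, 379, 359, 340 and 341 to 2832, 3055, 2976, 3082 and 2924. The rises were 7.77-fold and 8.39-fold, and the log2 difference was 0.11, with a 95% interval of -0.02 to 0.24.

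Sgk1, a kinase of ion transport and survival and a classical GR target, rose from 1230, 1269 and 1215 to 3428, 3726 and 2814 in W718E. For W718S/Y722S the values went from 2371, 2492, 2573, 2554 and 2464 to 6372, 7880, 8005, 7490 and 7371. The levels of the 2 lines did not overlap with or without Dex, with ratios of 2.01 and 2.23, while the folds of 2.68 and 2.98 differed by 0.16 on the log2 scale (95% interval -0.04 to 0.36). Jade2, a subunit of a histone acetyltransferase complex, rose 1.59-fold in both lines, with an interval of -0.12 to 0.12. Sik1, a salt-inducible kinase, rose by 0.51 and 0.54, Per2 by 0.51 and 0.63, and Klf9, a Kruppel-like factor, by 0.75 and 0.90 on the log2 scale. The other genes alike by this rule with a change of at least 0.5 in both lines were Arrdc2, an arrestin-domain gene (difference 0.12), Bcl2l1, which encodes the survival protein BCL-XL (0.13), and Foxred2 (0.23). The Foxred2 difference passed without W718S/Y722S Dex replicate 1 (0.25, adjusted p = 0.0482). The 3 genes that fell alike were Dusp4, a phosphatase of MAP kinases (-0.46 and -0.57), Btg1, an antiproliferative factor (-0.28 and -0.47), and Ripk2, a kinase of innate immune signalling (-0.23 and -0.15).

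The scale mattered for such genes. In the deposited log2 values changes were shrunken, with a slope on the recovered change of 0.167 in W718E and 0.276 in W718S/Y722S over the genes called in P643A described below. On that scale the change of Per1 was 1.13 in W718E and 1.67 in W718S/Y722S, and the difference of 0.54 passed (adjusted p = 1.52e-09 in limma). From recovered counts the same gene had a difference of 0.11 (adjusted p = 0.611). On the deposited values 97 genes passed for the difference, among them all 35.

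Of the 72 genes called in W718E, 4 were not called in W718S/Y722S. Besides Snora74a they included Zfp36, which encodes a protein that destabilises inflammatory mRNAs (0.43 in W718E and 0.21 in W718S/Y722S), and Bhlhe41, a clock repressor (0.27 and 0.03). They were named after their values were seen. The difference did not pass for Zfp36 (adjusted p = 0.504) or Bhlhe41 (adjusted p = 0.136). That of Bhlhe41 passed without W718S/Y722S Dex replicate 1 (-0.19, adjusted p = 0.0324).

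Genes close to the threshold depended on the outlying Dex library. Tsc22d3, whose product GILZ restrains inflammatory signalling, rose by 1.28 ± 0.08 in W718E and 1.73 ± 0.06 in W718S/Y722S. Its level was 583, 552 and 522 with vehicle and 1366, 1362 and 1298 with Dex in W718E. W718S/Y722S libraries went from 376, 353, 424, 412 and 404 to 1105, 1438, 1452, 1282 and 1288, where the first Dex value is that of replicate 1. That value and those of replicates 4 and 5, 1282 and 1288, lay below every W718E Dex library. With vehicle, every W718S/Y722S library lay below every W718E library. The difference of 0.45 had an adjusted p of 0.0575, and without Dex replicate 1 it was 0.51 (adjusted p = 0.000921). Phlda1, a pleckstrin homology-like protein, had vehicle and Dex means of 1759 ± 48.2 and 1483 ± 61.1 in W718E, a change that did not pass, and fell from 1472 ± 98.5 to 950 ± 140 in W718S/Y722S. Its difference was -0.39 (adjusted p = 0.141) with all libraries and -0.48 (adjusted p = 0.000146) without that one. Both genes were picked after their values were seen.

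To describe the size of the response on genes chosen in other cells, the 408 genes to which the authors' deposited table gave an adjusted p under 0.05 in the P643A line were used. That line shares no library with the 2 lines compared. Of these genes 404 were tested here, and 71 of them passed in W718E, where 0.557% of all genes did, and 245 in W718S/Y722S, where 5.03% did. The slope through 0 of the W718E change on the W718S/Y722S change over the 404 genes was 0.692, and 0.662 without W718S/Y722S Dex replicate 1. In 305 of the 404 the change was larger in size in W718S/Y722S. For the 250 genes higher in P643A the slope was 0.710, with median log2 changes of 0.17 in W718E and 0.27 in W718S/Y722S. For the 154 genes lower in P643A it was 0.414, with medians of -0.07 and -0.16. Over all genes tested the medians were -0.00 and -0.00. Genes are not independent replicates, and no test was made over them.

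The slope was higher in bins of larger P643A change. Among the 33 genes with a P643A change over 1 in the authors' deposited table the slope was 0.743. It was 0.585 for the 45 genes with a change of 0.5 to 1 and 0.455 for the 172 with 0 to 0.5. Medians in this order were 1.07, 0.30 and 0.12 in W718E and 1.40, 0.49 and 0.20 in W718S/Y722S. Noise in the W718S/Y722S change also lowers such a slope, more so where changes are small. How much this weighed in each bin was not tested. Among the 145 genes with a change of -0.5 to 0 the slope was 0.336. Among the 9 with a change under -0.5 it was 0.608, with medians of -0.34 in W718E and -0.41 in W718S/Y722S. Per Dex library, the slope of the change on the authors' deposited P643A change over the 250 higher genes was 0.572, 0.616 and 0.523 in W718E. It was 0.630 in W718S/Y722S Dex replicate 1 and 0.778 to 0.825 in the other 4. Over the 154 lower genes it was 0.361 to 0.458 in W718E and 0.627 to 0.914 in W718S/Y722S. The libraries of the lines did not overlap in either set, although 0.630 and 0.616 for the higher genes lay close. Of the 22 genes of higher change 19 were called in P643A, and 3 of the 13 of lower change were, namely Txnip, Dipk2a and Irf2bpl. Of all 12932 genes tested 404 were called in P643A. Among the genes called in W718S/Y722S, 176 of the 339 that rose and 69 of the 311 that fell were called in P643A.

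**Figure D5:**
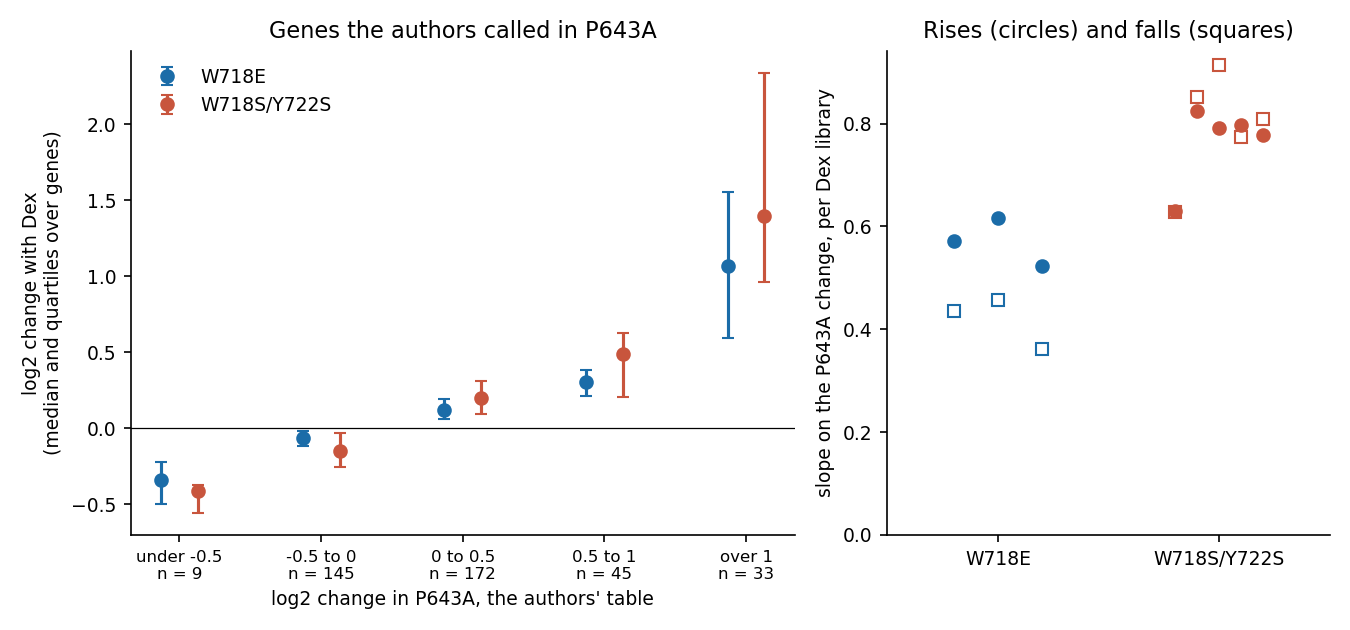
Left, median log2 change with Dex in W718E (blue) and W718S/Y722S (red) with quartiles over genes, for genes the authors called in P643A in bins of their P643A change. Right, slope of each Dex library's changes on the P643A change for genes higher (circles) and lower (squares) in P643A; the W718E libraries lie at 0.361 to 0.616 and the W718S/Y722S libraries at 0.627 to 0.914.

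The gene lists here and below were written with earlier results of these data known, which can raise their counts. Their counts beside the shares of all genes are descriptions and not tests. Among 25 GR-induced targets, 22 were tested. Of these 16 rose in W718E, where 0.526% of all genes rose, and 17 in W718S/Y722S, where 2.62% did, and none fell in either. The median log2 change was 0.47 in W718E and 0.78 in W718S/Y722S. The difference passed for 3, Ccn2, Ampd3 and Glul, all higher, and its median was 0.17 against -0.00 over all genes. Fkbp5, an immunophilin that dampens GR itself, rose by 0.36 and 0.62, with a difference that did not pass (adjusted p = 0.247). Spsb1, an adaptor of a ubiquitin ligase, rose by 1.13 and 1.51, Errfi1, an inhibitor of EGF receptor signalling, by 0.49 and 0.84, and the metallothionein Mt1 by 0.28 and 0.51, with no difference that passed. Lcn2, a siderophore-binding lipocalin, rose in W718S/Y722S from a mean of 1.30 to 16.2 and had means of 1.52 and 7.33 in W718E, too low to read a difference.

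The Hippo and TEAD list of 16 genes held 3 of the 35 genes, Ccn2 and Tead4 higher and Ccn1 lower, where 0.17% and 0.101% of all genes were. Without W718S/Y722S Dex replicate 1 the difference also passed for Ankrd1 and Ajuba, both lower. Ankrd1, another YAP target, fell by 0.40 in W718S/Y722S and had a value of -0.02 in W718E (adjusted p of the difference = 0.0575, and 0.0113 without W718S/Y722S Dex replicate 1). Yap1 and Wwtr1, the coactivators of the pathway, and Lats1 and Lats2, its kinases, passed in neither line. Of the BCL2 family, 14 genes were tested, and 1, Bcl2l1, rose in W718E, where 0.526% of all genes rose. In W718S/Y722S 2 rose, Bcl2l1 and Mcl1, and 1 fell, Bbc3, where 2.62% rose and 2.4% fell. Bbc3 had the called difference. These calls are few and are not a result about the list. Of 19 TGF-beta and matrix genes, the difference passed for Tgfb3. In that list 1 rose in W718E, where 0.526% of all genes rose, and 2 rose and 5 fell in W718S/Y722S, where 2.62% rose and 2.4% fell.

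In the other lists no difference passed with all libraries. The counts that follow stand against 0.526% of all genes that rose and 0.0309% that fell in W718E, and 2.62% and 2.4% in W718S/Y722S. A single call in a list of 15 to 19 genes, or 2 in 19, is too few to set against these shares and is not a result about the list. Of 17 inflammatory, AP-1 and NF-kB genes none changed in W718E, whereas 2 rose and 4 fell in W718S/Y722S, among the latter Jun (-0.28) and Ptgs2 (-0.37), the inducible cyclooxygenase. The W718E value of Ptgs2 was -0.50 and just missed the threshold (adjusted p = 0.0569). Without W718S/Y722S Dex replicate 1, the difference passed for Csf1, Jun and Junb, all lower, where 0.619% of all genes were lower. Of 14 genes of ERK feedback, 1 rose and 1 fell in W718E and 2 rose and 5 fell in W718S/Y722S. Of 19 early and Kruppel-like factors 2 rose in W718E and 4 rose and 7 fell in W718S/Y722S, with a median difference of -0.19. Of 15 clock genes 3 rose in each line, and 4, among them Dbp (-0.37) and Nr1d1 (-0.31), fell in W718S/Y722S. Of 17 insulin and PI3 kinase genes 1 rose in W718E and 3 rose and 3 fell in W718S/Y722S. Of 21 cholesterol synthesis genes 5 fell in W718S/Y722S, among them Insig1 (-0.37), and of 18 genes of ATF4 and ER stress 4 fell there, while none of either list changed in W718E. Of 19 chaperone and heat shock genes 1 rose in W718E and 2 in W718S/Y722S. Of 16 steroid receptors and coregulators Nr3c1 alone changed, in W718S/Y722S. No gene of 20 in the G2/M list passed in either line, and of 15 housekeeping genes 1 fell in W718S/Y722S. The 6 noncoding RNAs tested as signs of RNA quality passed in neither line. Without W718S/Y722S Dex replicate 1 the difference was also lower for 4 of the 17 insulin and PI3 kinase genes. These were Irs1, Ddit4, Trib1 and Trib3. In that fit it was lower for 3 genes of ATF4 and ER stress and 1 clock gene. It was lower for 2 genes each of the cholesterol, ERK feedback and early and Kruppel-like lists. These calls are few and are not a result about the lists.

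Promoter sequence was looked at for genes that the results turn on, in the 250 bases before RefSeq start sites (GRCm38.p6, the same assembly as mm10). Of the named genes, 8 of 15 of higher change, 11 of 13 of lower change and 6 of 9 alike had a window in the table used. Ccn2 had none, so its promoter was not searched. The full GR palindrome, AGAACA and TGTTCT with any 3 bases between them, which reads the same on both strands, was in 3 of 32851 windows (0.00913%), and 1 of these belongs to Sgk1. A looser palindrome, which keeps only G, N, ACA, then any 3 bases, then TGT, N, C, with N for any base, and of which the full one is a case, was in 0.387% of windows, among the named genes for Sgk1 and Txnip. The TEAD core GGAATG, searched on both strands, was in 12.6% of windows and in those of Ccn1, Sphk1, Zfp697, Bcl2l1 and Sgk1. Per set this was 2 of 8 genes of higher change, 1 of 11 of lower change and 2 of 6 alike. Of all genes with a window, 14.4% had a match, and the sets are too small to read against that share. The windows of Sgk1, alike in fold in both lines, of Txnip, of opposite sign, and of Ccn1, which fell in W718S/Y722S, are printed 5′ to 3′ on the strand of the gene. Capitals mark the GR palindrome in Sgk1 and its looser form in Txnip, and the TEAD core in Ccn1, while the TEAD core of the Sgk1 window is left in lower case. The windows lie at chr10:21993640-21993889 (plus strand, 1 of 6 Sgk1 start sites in the table), chr3:96557707-96557956 (plus) and chr3:145649986-145650235 (minus). The match in capitals begins 189, 172 and 103 bases before the start site, in this order.
Sgk1: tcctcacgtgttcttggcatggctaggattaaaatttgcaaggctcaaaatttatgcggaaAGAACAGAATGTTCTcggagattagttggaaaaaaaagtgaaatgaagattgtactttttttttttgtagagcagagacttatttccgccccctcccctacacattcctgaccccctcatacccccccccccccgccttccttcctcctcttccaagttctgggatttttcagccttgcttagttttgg
Txnip: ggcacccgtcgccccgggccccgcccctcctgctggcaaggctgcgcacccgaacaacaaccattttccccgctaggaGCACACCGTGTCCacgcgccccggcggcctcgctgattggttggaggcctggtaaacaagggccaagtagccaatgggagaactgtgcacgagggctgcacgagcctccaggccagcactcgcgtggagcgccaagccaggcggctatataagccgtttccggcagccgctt
Ccn1: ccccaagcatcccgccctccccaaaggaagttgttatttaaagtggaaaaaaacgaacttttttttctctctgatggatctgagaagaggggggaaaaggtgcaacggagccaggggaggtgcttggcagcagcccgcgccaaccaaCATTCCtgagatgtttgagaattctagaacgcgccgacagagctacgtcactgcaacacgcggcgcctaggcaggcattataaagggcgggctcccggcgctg
A match is a description of these letters and not a site of binding.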

How the data were processed

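Total RNA was sequenced from stranded libraries. Per the submitters' processing notes, cutadapt, STAR 2.7.0f, HOMER 4.10.4 and mm10 were used. Per the file headers, reads in exons were counted for 1 RefSeq transcript per gene, with no strand option given, so overlapping and antisense genes are not separated. The deposited library values are log2 values normalised and shrunken by the authors within each table. For each gene the deposited tables also hold the authors' own log2 fold change with its p-value and adjusted p-value, from a test not given in the sources used here.

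Whole read counts were recovered by inverting that shrinkage, with the prior variance fitted per table (0.00509 in W718E and 0.00807 in W718S/Y722S). Running the fit forward on the recovered counts matched every deposited value to within 3.36e-06. This recovery and the tests were also run on data simulated with the same fit. That run cannot show whether the fit holds for the deposited values, and it had no outlying or near-identical libraries. Size factors of each table scaled the counts. Levels carry 1 further constant per table (1.15 and 0.919) that sets both on 1 scale, which cancels in the changes. Genes were joined by symbol, and 1592 had different transcripts in the 2 tables, 352 of them tested. Interval bounds and SEs cover the spread between libraries.

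limma 3.58.1 in R 4.3.3 fitted log2(count + 1) on 4 group means (eBayes with a trend, 12 residual degrees of freedom), with Benjamini-Hochberg adjustment over all 12932 genes. A fold change on this scale understates that of low genes. 

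The named genes were the 15 of highest and the 15 of lowest difference among those called, with a level of at least 50 in some group and a sign kept in every fit without 1 library (13 qualified as lower), the alike genes with changes of at least 0.5 (up to 10, of which 9 qualified), genes larger in W718E, list members and Nr3c1. Members, lists and this rule were chosen with earlier results of these data known. Alternatives were another pseudocount, filter and scaling, deposited values, a block, weights, equal replicate numbers and leaving out each library. Added after seeing the data were summed near-identical libraries and the exon share as a term. The other lines' libraries were not used here. Results for some genes are not reported here.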

Additional observations from a re-analysis of the deposited data

Results flagged for a closer look

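The Dex changes of the lines differed, by the contrast of the changes in limma, for 28 named genes. The log2 difference (W718S/Y722S minus W718E) was 1.23 for Ccn2, 1.12 for Snora74a, 0.73 for Sphk1, 0.72 for Ampd3, 0.66 for Hmga2, 0.50 for Zfp697, 0.44 for Tead4, 0.42 for Cdr2, 0.41 for Glul, 0.40 for Pkp1, 0.40 for Nfatc1, 0.38 for Wee1, 0.32 for Cblb, 0.32 for Fmnl2 and 0.31 for Colec12. It was -0.86 for Rasl11a, -0.81 for Txnip, -0.59 for Prelp, -0.58 for Bbc3, -0.55 for Slc25a42, -0.52 for Dagla, -0.42 for Dipk2a, -0.41 for Ccn1, -0.40 for Gpat3, -0.28 for Tgfb3, -0.27 for Irf2bpl, -0.26 for Zcchc24 and -0.25 for Emilin1.

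In the groups of 5 libraries, 1 value lay far from the other 4 by Dixon's criterion (ratio over 0.71) in 9 of 86 sets of values, where chance flags about 1 in 20. In W718S/Y722S Dex replicate 1 these were the levels of Ccn2 (1588), Ampd3 (2189), Wee1 (2079), Cblb (929), Prelp (340.4) and Phlda1 (1195), 6 of the 9. The others were Irf2bpl in Dex replicate 2 (2355), Per2 in vehicle replicate 1 (455) and the Rn45s share of vehicle replicate 1 (18.3% of exon counts).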

How the results depend on the processing

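No named gene with a called difference changed sign in the settings other than leaving out a library. A sign kept on leaving out each library was part of the naming rule. On the deposited log2 values the calls were 39 in W718E, 902 in W718S/Y722S and 97 for the difference, and the slope over the genes called in P643A was 0.450. The difference had 21 calls with no filter on low values (19600 genes tested), 5 with 3 libraries per group, 14 with near-identical libraries summed and 59 with the exon share as a term. That term marks the 4 W718S/Y722S libraries with an exon share under 70%, 2 vehicle and 2 Dex, and all 35 calls held with it. In W718S/Y722S the calls were 324 with 3 libraries per group, where fewer samples entered, and 308 with near-identical libraries summed. Leaving out 1 library gave 51 to 111 calls in W718E, 461 to 855 in W718S/Y722S and 17 to 146 for the difference, the highest each time without W718S/Y722S Dex replicate 1. Another pseudocount, a filter at 50, other scalings, voom and array weights kept all 3 counts within 1.5 times.

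The replicate numbers did not pair the libraries throughout. Deviations of same-numbered vehicle and Dex libraries correlated at 0.02 to 0.46 in W718E and at -0.14 to 0.11 in W718S/Y722S. In W718E each Dex library correlated best with the vehicle library of its own number. Vehicle replicate 1 of W718E, however, correlated better with Dex replicate 2 (0.20) than with Dex replicate 1 (0.02). In W718S/Y722S most libraries did not correlate best with their own number. With a replicate block, 91, 676 and 42 genes passed, 28 of the 42 among the 35. Of 336 values for the 28 named genes with a called difference, over settings other than leaving out a library, 282 kept their call and 54 did not pass. On leaving out 1 library, 328 of 448 kept it and 120 did not.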
